A study of Rattus norvegicus with 6 samples.

Results

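The nuclear-encoded subunits of the respiratory chain and of ATP synthase were followed in livers of rats resuscitated after uncontrolled hemorrhage. The genes were taken by symbol: all NADH dehydrogenase (Nduf) genes with their assembly factors, the succinate dehydrogenase genes Sdha to Sdhd, the Uqcr genes and Cyc1 of the cytochrome bc1 complex, Cycs, the Cox4 to Cox8 genes of cytochrome c oxidase, and the Atp5 genes of ATP synthase. This gave 53 genes on 54 rows, of 7126 gene symbols matched to 7223 of the 19345 rows of the table. The rat RefSeq annotation used for matching holds 120 protein-coding symbols that fit the rule, so the 53 genes cover only a part of them. Genes are called measured here if they were matched to a row by symbol. No symbol was matched to 12122 rows, and whether these hold further genes of the chain was not examined. For the single gene with more than 1 row, the brighter row was used. The 53 genes comprised 14 subunits and 3 assembly factors of complex I, 3 of complex II, 5 of complex III, Cycs, 12 of complex IV and 15 of ATP synthase. Sdhb, Cyc1, Cox6b1, Cox7c and Ndufa4 are among the genes not analysed here.

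Male Sprague-Dawley rats, aged 90 to 120 days, bled from an amputated tail. In the limited group, Ringer's solution, a salt solution, was given to hold mean arterial pressure at 50 to 60 mmHg. In the aggressive group the same solution was given to hold it over 80 mmHg, and livers of both groups were taken at 330 min. Of the 6 rats assigned to each regimen, 3 samples per group were measured on 1-colour NimbleGen arrays, and unbled rats were not analysed here, so that all values set one regimen against the other. The labels do not say that each array came from a separate rat. The p-values set each difference against the spread between these samples, moderated by the spread of all rows. If the samples are not separate rats, that spread need not be the spread between rats.

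The respiratory chain passes electrons from NADH (complex I) and succinate (complex II) through ubiquinone to complex III, and by the mobile carrier cytochrome c to complex IV, where oxygen is reduced. Protons pumped on the way drive ATP synthase, which makes most of the ATP of a hepatocyte. Complex IV is where oxygen enters the chain, and shock limits the delivery of oxygen to the liver.

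Other cell types and array quality were checked beside these genes. Array medians lay between 212 and 245. The correlation of log2 values was at least 0.965 for arrays of the same group and at most 0.963 for arrays of different groups. The 8 hepatocyte markers were all measured, and their summed intensity was 289053 to 305210.0 in limited and 295728 to 325479 in aggressive arrays. One of them, Alb, was the highest row of aggressive arrays 1 and 2, at 52863 and 54838. Whether rows this bright still follow the amount of transcript was not tested. Aggressive arrays 1 and 3 stood apart in most of the lung transcripts listed. The lung list was chosen with earlier results of these data known, so counts by direction in it are a description and no test. Of 11 listed lung markers, 11 had a difference below 0 and 1 passed. Their summed intensity was 575 to 794 in limited arrays, against 5486, 1810.2 and 7819 in aggressive arrays 1 to 3. The 1 that passed, Car4, was high in all aggressive arrays, at 695, 802 and 970, against 129, 101 and 128 in limited arrays. Pdpn was also high in aggressive array 2, at 739, where Sftpc read 33.7. Of the Kupffer cell and macrophage markers, 7 of 7 had a difference above 0, with sums of 37500.2 to 43162 in limited and 23389 to 29037 in aggressive arrays. These 7 included 0 that passed. The part of these cells in the values below was not tested, and in whole tissue fewer cells of a type cannot be told apart from less RNA per cell.

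None of the 53 genes of the respiratory chain or ATP synthase matched here passed the test between the regimens, and most differences were bounded within 2-fold. With limma's moderated test and Benjamini-Hochberg adjustment over all rows, 0 of the 53 genes passed an adjusted p of 0.05, against 0.114% of all 19345 rows. An unadjusted p under 0.05 was reached by 2 of the 53, Cox6a2 and Cycs, or 3.77%. The share was 13.1% of all rows and 12.6% of rows at or above the median mean intensity. This contrast holds for the main fit only. The count was 8 of 53 with an intensity trend and robust prior in limma, and 4 of 49 without dim rows. The share of all rows was not taken under those settings. The 2 genes lay on opposite sides: Cox6a2 was 1.82-fold higher under limited resuscitation, and Cycs was lower under limited resuscitation, at 0.693 times its aggressive level. The median log2 difference, limited minus aggressive, was -0.052 over the 53 genes and 0.012 over all rows, with 24 genes above and 29 below 0. Without aggressive arrays 1 and 3 the median of the 53 genes was 0.048. The median size of the difference was 0.17 for these genes and 0.26 for all rows, or 0.21 for rows at or above the median mean intensity. Apart from 4 isoform genes known from other tissues, the genes had intensities between 272 and 25117, and limited over aggressive ratios between 0.693 and 1.37.

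The arrays were precise enough to bound most of these genes. The 95% confidence interval of the difference lay wholly within 2-fold in either direction for 47 of the 53 genes, or 88.7%, against 58.2% of all rows and 83.2% of rows at or above the median mean. The 6 others were Cox6a2, Cycs, Uqcrc1 and the isoform genes Cox4i2, Cox6b2 and Cox8c. Within groups the standard deviation had a median of 0.20 on the log2 scale for these genes, 0.31 for all rows and 0.22 for rows at or above the median mean. With aggressive arrays 1 and 3 left out, 30 of the 53 intervals lay within 2-fold, from 4 arrays in place of 6. The groups did not overlap for 9 genes, or 17.0%, against 19.8% of all rows and 25.2% of rows at or above the median mean. Limited was above in 5 of these (10.0% of all rows) and below in 4 (9.76% of all rows). Those of the 53 genes described below as without overlap are among these 9.

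**Figure D1:**
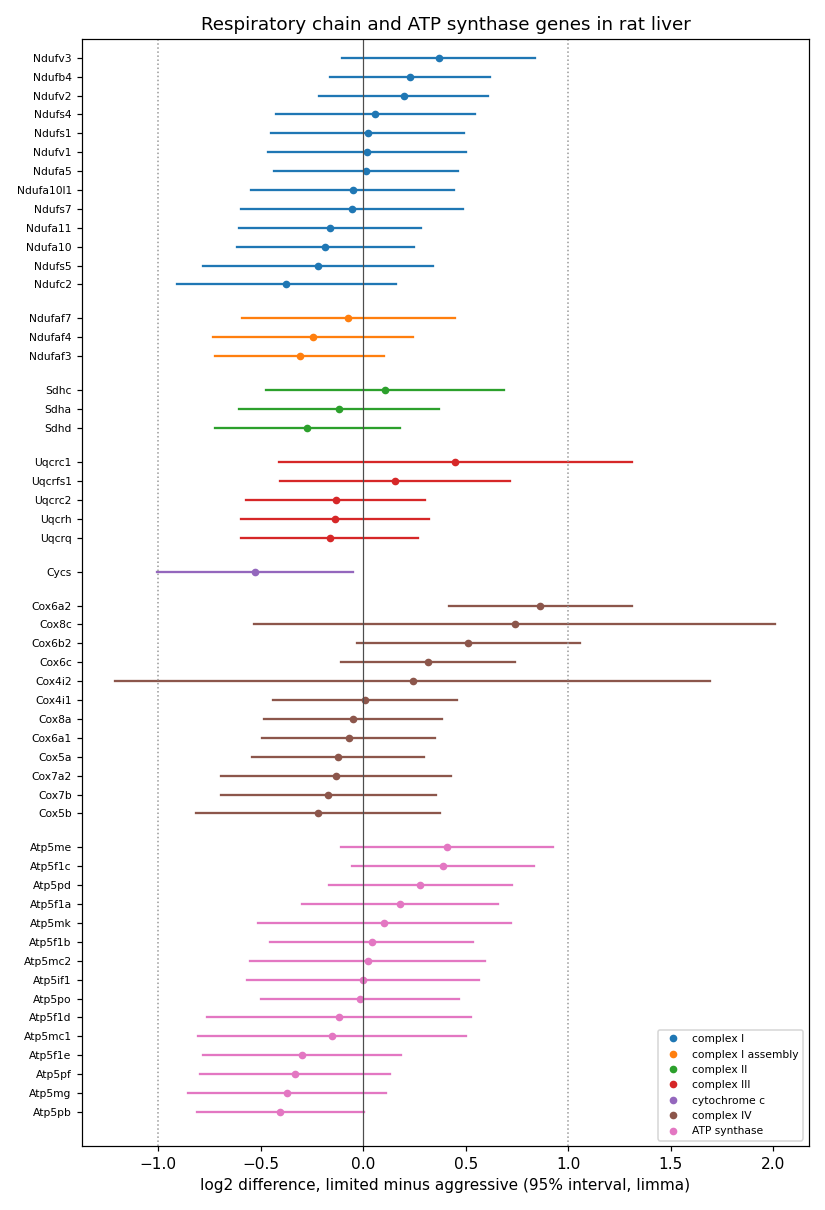
Log2 difference (limited minus aggressive, points) of 52 of the 53 genes with its 95% interval from limma (bars), grouped by complex; dotted lines mark 2-fold. Of the 52 intervals, 46 lie between the dotted lines, and those of Cox8c and Cox4i2 are the widest.

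The groups overlapped in the array medians over all 53 genes and over the subunits of complexes I to IV and of ATP synthase. The median log2 deviation of the 53 genes from their means over 6 arrays was -0.027, 0.064 and -0.055 in limited arrays 1 to 3, against 0.059, -0.069 and 0.14 in aggressive arrays 1 to 3. Aggressive array 3 was the highest and aggressive array 2 the lowest, with the limited arrays between them. For ATP synthase the medians were -0.0073, 0.16 and -0.056 in the limited arrays, against -0.053, -0.16 and 0.28 in the aggressive arrays. For the 3 complex I assembly factors they did not overlap, at -0.027, -0.18 and -0.26 in the limited arrays, against 0.17, 0.12 and 0.17 in the aggressive arrays. Cycs, a single gene, did not overlap either, as in 19.8% of all rows. Nor did the medians of the 4 tissue-restricted isoform genes of complex IV. They were 0.48, 0.10 and 0.45 in the limited arrays, against -0.73, -0.22 and -0.056 in the aggressive arrays. All 4 genes lay below the array medians on every array, and taken singly only 1 of them, Cox6a2, was without overlap.

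**Figure D2:**
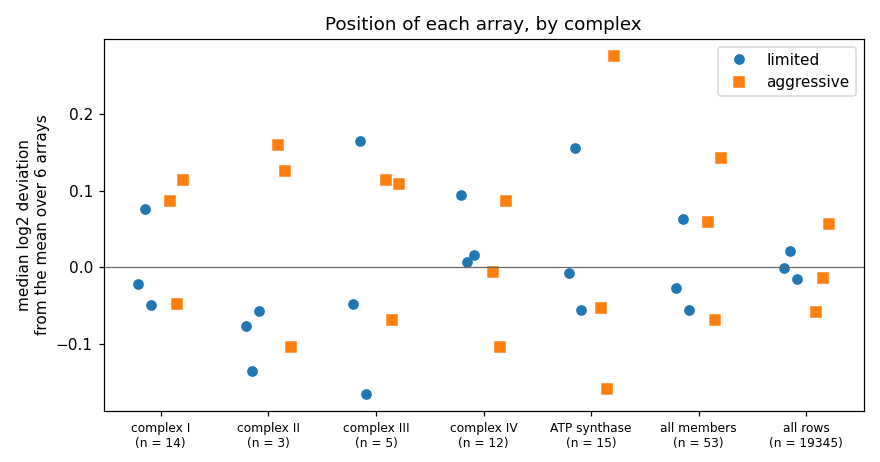
Median log2 deviation of each array from the mean over 6 arrays (vertical axis), for the subunits of complexes I to IV and ATP synthase, all 53 genes and all rows (horizontal axis); circles are limited and squares aggressive arrays. The groups overlap in each of the columns drawn, which leave out the assembly factors and Cycs, and aggressive array 3 stands highest for ATP synthase, at 0.28.

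Genes for respiratory subunits are known targets of NRF1, of ETS factors such as GABP, of estrogen-related receptors (ERR) and of YY1, so the promoters of the genes were searched for letters these factors bind. RefSeq windows of the GRCr8 assembly, 250 bases before to 50 after the start, were at hand for 47 of the 53 genes. The letters searched on both strands were GCGCANGCG for NRF1, CCGGAAG for ETS, AAGGTCA for ERR and AAGATGGC for YY1. The NRF1 letters were in 14 of 47 windows, or 29.8%, against 6.26% of all 27457 windows and 11.1% of the 5794 windows of genes measured here. For ETS the share was 29.8% against 9.22% and 15.1%, for ERR 17.0% against 4.37% and 3.45%, and for YY1 17.0% against 3.44% and 4.38%. At least 1 of the 4 was found in 30 of the 47 genes, or 63.8%, against 20.6% of all windows and 28.9% of those of measured genes. These shares are descriptions, and the median base composition was 58.3% G and C for the 47 genes, against 52.3% for all windows and 59.3% for measured genes. Of the 4 tissue-restricted isoform genes, 3 had a window, and 0 of those held any of the 4 motifs.

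**Figure D3:**
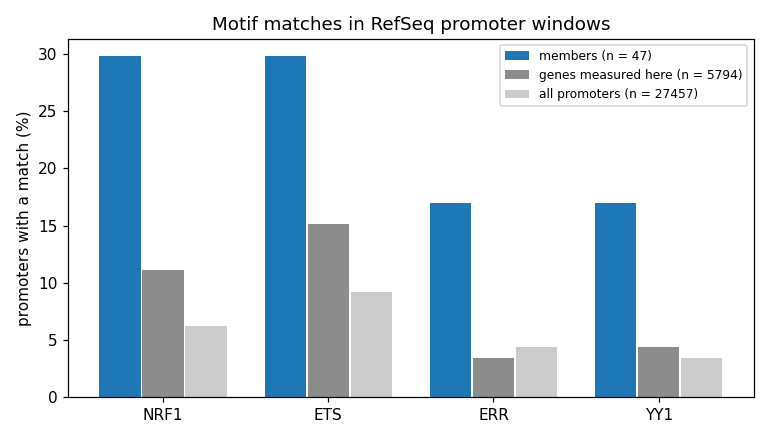
Share of promoter windows (vertical axis, percent) that hold the letters of each factor (horizontal axis), for the 47 genes with a window, for measured genes and for all windows. The shares of the 47 genes, between 17.0% and 29.8%, exceed both backgrounds for each factor.

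The stretches below show one such promoter for each of 6 parts of the chain, and that of the muscle isoform gene Cox6a2, which held none. All lie before the start and run 5′ to 3′ on the strand of the gene, with matched letters in capitals. They are at chr9:1637507-1637566 (plus strand) for Ndufa11, chr1:30764454-30764525 (plus) for Sdha, chr8:118468150-118468209 (plus) for Uqcrc1, chr4:80984876-80984935 (minus) for Cycs, chr1:213833626-213833690 (minus) for Cox8a, chr8:54130410-54130469 (minus) for Atp5mg and chr1:192219717-192219776 (minus) for Cox6a2, all in GRCr8. Capitals mark NRF1 letters in the first 4, ETS letters in Cox8a and ERR letters in Atp5mg. Some windows held more matches outside the printed stretch. These were NRF1 and ETS letters in Atp5mg, YY1 and ERR letters in Cox8a, YY1 letters in Uqcrc1 and further NRF1 letters in Sdha. In Ndufa11 the 4 matches, 2 on each strand, overlap in a single run.
Ndufa11: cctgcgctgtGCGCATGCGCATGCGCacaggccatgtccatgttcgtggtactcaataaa
Sdha: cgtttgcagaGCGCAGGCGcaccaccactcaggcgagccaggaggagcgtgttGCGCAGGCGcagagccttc
Uqcrc1: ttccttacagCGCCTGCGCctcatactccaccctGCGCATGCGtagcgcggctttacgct
Cycs: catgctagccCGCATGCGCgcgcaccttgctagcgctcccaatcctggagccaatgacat
Cox8a: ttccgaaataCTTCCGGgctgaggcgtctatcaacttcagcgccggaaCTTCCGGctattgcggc
Atp5mg: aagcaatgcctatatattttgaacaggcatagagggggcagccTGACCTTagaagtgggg
Cox6a2: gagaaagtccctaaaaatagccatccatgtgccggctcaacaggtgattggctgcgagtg

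The differences were also set side by side by motif. The median log2 difference, limited minus aggressive, was -0.0013 for the 14 genes with NRF1 letters and -0.074 for the 33 without. It was -0.13 for the 14 genes with ETS letters and -0.016 for the 33 without. For ERR letters it was -0.19 for the 8 genes with them and -0.016 for the 39 without. For YY1 letters it was 0.022 for the 8 genes with them and -0.12 for the 39 without. The median difference of genes with the letters was thus the higher one for NRF1 and YY1 and the lower one for ETS and ERR, values given without a test.

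In complex I, the entry point of NADH electrons, the 14 subunits had differences between -0.38 and 0.37, with 7 above and 7 below 0. The adjusted p (limma) was at least 0.487 for each of them, and all 14 intervals lay within 2-fold. Ndufv1, which binds NADH and the flavin, had intensities of 7352, 6963 and 6307 in limited arrays, against 7449, 5498 and 7589 in aggressive arrays, a log2 difference of 0.02 (95% interval -0.46 to 0.50). Ndufs1, a subunit with iron-sulfur clusters, had 3013, 2434 and 2848 in limited arrays, against 3008, 2289 and 2898 in aggressive arrays, a difference of 0.02 (-0.45 to 0.49). In both genes the groups overlapped, with aggressive array 2 the lowest of all arrays.

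The 5 genes of the NADH-binding module all had a difference above 0, with Ndufv3 at 0.37, Ndufv2 at 0.20, Ndufs4 at 0.06 and Ndufs1 and Ndufv1 at 0.02. Of the ubiquinone-binding module, Ndufs7, which carries an iron-sulfur cluster, was at -0.05 and Ndufa5 at 0.01. In the membrane arm, Ndufc2 was at -0.38, Ndufs5 at -0.22, Ndufa10 at -0.19, Ndufa11 at -0.16 and Ndufb4 at 0.23. This order was looked at after the values were seen, and 0 of these genes passed. Ndufa10l1, named as a relative of Ndufa10, was at -0.05.

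The groups did not overlap in Ndufb4 and in Ndufv3, as in 19.8% of all rows. Ndufb4, an accessory subunit of the membrane arm, was even within groups, at 3221, 3327 and 3221 in limited arrays, against 2695, 2769 and 2878 in aggressive arrays. Its difference of 0.23 (95% interval -0.16 to 0.62) did not pass (adjusted p = 0.616, limma). Ndufv3, an accessory subunit, had 947, 1193 and 962 in limited arrays, against 778, 918 and 709 in aggressive arrays. The difference of Ndufv3 was 0.37 (95% interval -0.10 to 0.84), and neither gene passed.

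Of the assembly factors of complex I, Ndufaf3 and Ndufaf4, which act together early in assembly, differed by -0.31 and -0.24, and Ndufaf7, a mitochondrial methyltransferase, by -0.07. Ndufaf3 had 709, 810.2 and 679 in limited arrays, against 917, 886 and 915 in aggressive arrays, without overlap (adjusted p = 0.502, limma). Its second row, with the lower mean over all arrays, lay on the other side of 0, with 758, 964 and 842 in limited arrays, against 663, 817 and 785 in aggressive arrays. The rows of this gene therefore disagreed in sign, at -0.31 and 0.18, and neither passed.

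Complex II, which also serves the citric acid cycle, had 3 measured subunits and no separation of the groups. Sdha, the flavoprotein that oxidises succinate, had 11073, 9307 and 13650.3 in limited arrays, against 13049, 12176 and 11344 in aggressive arrays, a difference of -0.12 (95% interval -0.61 to 0.37). The membrane anchor Sdhd had 3374, 3566 and 3764 in limited arrays, against 4902, 4464 and 3645 in aggressive arrays, a difference of -0.27. The other anchor, Sdhc, had 5171, 7149.7 and 4678 in limited arrays, against 5740.0, 5859 and 4126 in aggressive arrays, a difference of 0.11. The anchors thus lay on opposite sides of 0, and 0 of the 3 genes passed (adjusted p from 0.604 to 0.891, limma).

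In complex III, 4 of 5 subunits differed by less than 0.17. Uqcrq was at -0.16, the hinge protein gene Uqcrh at -0.14 and the core protein gene Uqcrc2 at -0.14. Uqcrfs1, which encodes the Rieske iron-sulfur protein, had 5984, 7416 and 4386 in limited arrays, against 5155, 5754 and 4755 in aggressive arrays, a difference of 0.15. The exception in spread was Uqcrc1, the other core protein gene, with 2269.8, 2866 and 2136 in limited arrays, against 2502, 983 and 2218 in aggressive arrays. Aggressive array 2 was the lowest by far, and the other 5 arrays overlapped. The difference of 0.45 (95% interval -0.41 to 1.31; adjusted p = 0.660, limma) was 0.029 without aggressive array 2 and 1.29 against that array alone.

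Cycs encodes cytochrome c, which carries electrons from complex III to complex IV and, once released from mitochondria, activates caspases. Its intensity was 2749.9, 3728 and 3884 in limited arrays, against 4765, 4832 and 5189 in aggressive arrays. Each limited array was below every aggressive array, with limited array 1 the lowest. Limited arrays averaged 3454 ± 615 and aggressive arrays 4929 ± 228 (SD, n = 3 each). The log2 difference of -0.53 (SE 0.204, 95% interval -1.01 to -0.05) did not pass (adjusted p = 0.347, limma), and its adjusted p over the alternatives lay between 0.0733 and 0.762. The lowest was reached with an intensity trend and robust prior, where 2.95% of all rows and 0 of the 53 genes passed. Without limited array 1 the difference was -0.37.

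**Figure D4:**
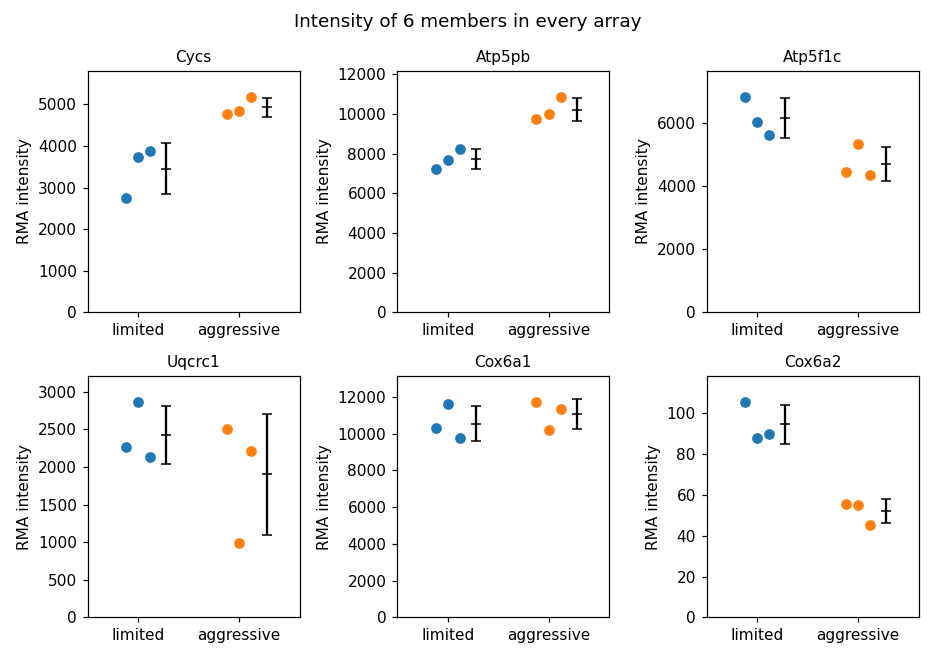
RMA intensity (vertical axis, linear) of 6 genes in each limited (left) and aggressive (right) array; bars give the mean and SD over 3 arrays. The groups are apart for Cycs, Atp5pb, Atp5f1c and Cox6a2 and overlap for Cox6a1 and for Uqcrc1, where aggressive array 2 reads 983.

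Complex IV is built in liver from ubiquitous and liver-type isoforms, and other tissues use alternative isoforms of several subunits. The 8 ubiquitous or liver-type genes had differences between -0.22 and 0.32 with a median of -0.097. Cox4i1, the common form of subunit 4, had 7152, 8440.1 and 7586 in limited arrays, against 8262, 8277 and 6562 in aggressive arrays, a difference of 0.01 (95% interval -0.44 to 0.46). Cox5a was at -0.12, Cox5b at -0.22, Cox7a2 at -0.13, Cox7b at -0.17 and Cox8a at -0.05. Cox6c was the only one of the 8 without overlap, at 7354, 7186 and 7610.3 in limited arrays, against 5342, 6698 and 5829 in aggressive arrays (difference 0.32, adjusted p = 0.507, limma).

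The largest difference among the 53 genes belonged to Cox6a2, the heart and skeletal muscle form of subunit 6a. Its intensity was 106, 87.9 and 90.0 in limited arrays, against 55.8, 55.1 and 45.1 in aggressive arrays. All limited arrays were above all aggressive arrays, yet every value lay below the median of its array. The log2 difference was 0.86 (SE 0.191, 95% interval 0.42 to 1.31), and it did not pass (adjusted p = 0.164, limma; 0.150 to 0.602 over the alternatives that tested it). Cox6a1, the liver form of the same subunit, had 10293, 11592 and 9769 in limited arrays, against 11729, 10178 and 11317 in aggressive arrays, a difference of -0.07 (95% interval -0.49 to 0.35). The groups overlapped for the liver form.

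The remaining isoform genes were likewise below the array medians on all 6 arrays. Cox6b2 and Cox8c, known from testis, had 59.8, 42.5 and 67.4, and 157, 78.8 and 37.9 in limited arrays, against 34.6, 42.5 and 40.1, and 28.3, 55.1 and 64.6 in aggressive arrays. Their differences were 0.51 and 0.74, the second being 0.23 without limited array 1 and 1.26 without limited array 3. Cox4i2, the form of subunit 4 abundant in lung, had 70.8, 33.6 and 123 in limited arrays, against 29.8, 49.1 and 121 in aggressive arrays. Aggressive arrays 1 and 3, where surfactant protein C (Sftpc) read 1247 and 1734, held its lowest and its highest aggressive value. For muscle, 6 of 10 listed skeletal markers and 4 of 7 heart markers were measured, all 10 below the array medians, with summed skeletal intensities of 352 to 432 in limited and 235 to 399 in aggressive arrays. Whether probes of these dim rows read any transcript in liver was not tested.

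In ATP synthase, 15 genes had differences between -0.40 and 0.41 with a median of 0.00044, 8 above and 7 below 0, and all intervals lay within 2-fold. In the catalytic F1 part, Atp5f1b, which carries the catalytic sites, had 23393, 18756 and 22814 in limited arrays, against 17691, 20713 and 25117 in aggressive arrays, a difference of 0.04 (95% interval -0.45 to 0.54). Its partner Atp5f1a was at 0.18, Atp5f1d at -0.12 and Atp5f1e at -0.30. Atp5f1c, the rotor shaft, had 6826, 6007 and 5601 in limited arrays, against 4447, 5318 and 4335 in aggressive arrays. The groups did not overlap for the shaft gene, and its difference of 0.39 did not pass (adjusted p = 0.439, limma).

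The peripheral stalk, which holds F1 still against the turning rotor, had genes on both sides of 0. Atp5pb had 7235, 7683 and 8256 in limited arrays, against 9757, 10016 and 10881 in aggressive arrays, again without overlap. Limited arrays averaged 7725 ± 512 and aggressive arrays 10218 ± 589 (SD, n = 3 each), and the difference of -0.40 (SE 0.173) did not pass (adjusted p = 0.387, limma). Atp5pf was at -0.33, Atp5po, which joins the stalk to F1, at -0.02, and Atp5pd at 0.28.

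In the membrane part, Atp5mc1 and Atp5mc2, separate genes for the same subunit of the proton-driven ring, were at -0.15 and 0.02. The subunits that join synthases into dimers were split, with Atp5me at 0.41, Atp5mk at 0.10 and Atp5mg at -0.37. Atp5me had 4209, 4678 and 3389 in limited arrays, against 3251, 2524 and 3485 in aggressive arrays, an overlap of the groups. Atp5if1, which encodes the inhibitor that stops the enzyme from consuming ATP when oxygen is lacking, had 1441, 1654 and 1063 in limited arrays, against 1234, 1232 and 1664 in aggressive arrays. The inhibitor gene averaged 1386 ± 299 in limited and 1377 ± 249 in aggressive arrays (SD, n = 3 each), a difference of 0.00044 (95% interval -0.57 to 0.57).

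Genes that build or supply the chain were read from the same fit, and 0 of them passed over all rows. Of all rows, 13.1% had an unadjusted p under 0.05 (limma), and in 19.8% the groups did not overlap. The genes named from these lists were picked by their unadjusted p. Of the assembly factors other than Ndufaf genes, 12 of 53 listed were measured, with a median of -0.077 and 1 unadjusted p under 0.05. That was Ecsit, a complex I assembly factor, with 1620.2, 1632 and 1788 in limited arrays, against 2499, 2185 and 2343 in aggressive arrays (adjusted p = 0.320, limma). Of regulators of mitochondrial biogenesis and mitochondrial DNA expression, 16 of 24 were measured, with a median of -0.092 and 1 such gene. This was Ppargc1a, the coactivator of NRF1 and ERR target genes, at 48.7, 58.5 and 37.6 in limited arrays, against 78.5, 142 and 91.8 in aggressive arrays. Its groups did not overlap, and all 6 values were below the array medians (difference -1.09, adjusted p = 0.209, limma).

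The citric acid cycle and pyruvate dehydrogenase list, 20 of 23 measured, had a median of 0.077. Its 1 gene with an unadjusted p under 0.05 was Pdk2, a kinase that switches pyruvate dehydrogenase off, with 5392, 6004 and 6972 in limited arrays, against 2780.4, 3068 and 4615 in aggressive arrays (adjusted p = 0.242, limma). In ubiquinone synthesis and electron entry, 16 of 19 were measured, with a median of -0.0023 and 2 such genes on opposite sides. Coq10b, a ubiquinone-binding protein, had 514, 452 and 652 in limited arrays, against 1296, 1229 and 1379.7 in aggressive arrays, a difference of -1.29 (adjusted p = 0.0856, limma). Coq8a, a regulator of ubiquinone synthesis, had 3354, 3439 and 3459.5 in limited arrays, against 1760.5, 1531 and 2816 in aggressive arrays (difference 0.80, adjusted p = 0.276, limma). The groups were apart in both, as in 19.8% of all rows. For proton leak and ADP/ATP exchange, 9 of 11 genes were measured, with a median of 0.16 and 0 unadjusted p under 0.05. The share of all rows with such a p was 13.1% (limma).

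The count of 2 genes with an unadjusted p under 0.05 was 1 without limited array 1, without aggressive array 1, 2 or 3, and 3 without limited array 2 or 3. The count of 0 genes that passed was the same without any 1 array and under each setting on all arrays, while the count over all rows moved between 0 and 570. Where 0 of all rows passed, as with the replicate block, the count of genes could only be 0.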

How the data were processed

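Liver RNA of 3 samples per group was measured on 1-colour arrays. The deposited values are intensities on a linear scale, 1 per RefSeq transcript and array, made by the authors with RMA, per the submitters' processing notes. As a method, RMA includes a background correction, a normalisation across arrays and a probe summary. The version of RMA and any filters applied are not known from these sources, and the labels name both Trizol and an RNeasy kit for extraction. Signal over background is unknown. The number of arrays limits the precision of each difference. Between-array normalisation would hide a shift shared by most transcripts.

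Log2 was taken. Rows were named by unversioned accession through the RefSeq table of GRCr8. Rows were fitted in R 4.3.3 with limma 3.58.1 (lmFit, eBayes; 4 residual and 3.261 prior degrees of freedom), adjusted over 19345 rows, two-sided. The fit was tested on simulated data. All values are limited minus aggressive. The genes and lists were chosen with earlier results of these data known. The fixed rule for named genes took those with an unadjusted p under 0.05, the extremes of each complex, 26 set genes and the leading list members; all others named were chosen after their values were seen. Alternatives were arrays left out, the mean of rows of a gene, weights per array, centring, a block for the replicate number, removal of dim rows, a robust prior with an intensity trend, and a second quantile normalisation. 1 gene enters the counts and is not reported by name here. Figures were drawn with matplotlib 3.10.9.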

Additional observations from a re-analysis of the deposited data

How the results depend on the processing

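Of 738 differences of single genes under the 14 alternatives, 667 kept their sign and their side of the threshold and 71 changed sign; 0 passed. The 27 genes that changed sign had main differences of at most 0.30. The count of passing genes was 0 under every alternative, and the count over all rows, 22, was 483 without dim rows, 570 with a robust prior and intensity trend, 0 with the replicate block, 0 to 2 with 1 array left out and 0 without aggressive arrays 1 and 3. Of 53 genes, 8 had an unadjusted p under 0.05 with the trend, 1 with the replicate block and 1 to 3 with 1 array left out. Without dim rows it was 4 of 49. The share of all rows was not taken under these settings, so the contrast of 3.77% with 13.1% stands for the main fit only. Same-numbered arrays deviated with correlations of -0.057, -0.052 and 0.050, and arrays of different numbers with -0.072 to 0.12. These values cannot decide whether same-numbered samples shared a day or batch, which the labels do not give. The 47 intervals within 2-fold, a count added after the data were examined, became 30 without aggressive arrays 1 and 3, where 1 aggressive array is assumed to vary like the limited ones; fewer samples widen them. There the medians were 0.048 for all genes, 0.010 for complex III and 0.16 for complex IV. The complex IV median was -0.097 without dim rows, which drop its 4 dim isoforms, and the median of the assembly factors was -0.074 with the mean of rows. With 1 array left out, the medians ran from -0.12 to 0.021 for complex I and -0.26 to -0.069 for complex II. The cause of the sign changes below was not tested.

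Signs turned with a second quantile normalisation for Atp5if1 (-0.011) and Cox6a1 (0.015), with centring for Atp5if1 (-0.035), Atp5mc2 (-0.014), Cox4i1 (-0.025), Ndufa5 (-0.022), Ndufs1 (-0.013) and Ndufv1 (-0.017), and with array weights for Cox4i1 (-0.014) and Ndufa5 (-0.013). Without aggressive arrays 1 and 3 they turned for Atp5f1d (0.10), Atp5f1e (0.010), Atp5mc1 (0.17), Atp5po (0.064), Cox4i1 (-0.10), Cox6a1 (0.048), Cox7a2 (0.18), Cox7b (0.19), Ndufs4 (-0.098), Ndufs5 (0.024), Ndufs7 (0.28), Sdhc (-0.073) and Uqcrh (0.064). With each array left out in turn, the range spanned 0 for Atp5f1b (-0.082 to 0.17), Atp5if1 (-0.14 to 0.18), Atp5mc1 (-0.32 to 0.074), Atp5po (-0.16 to 0.11), Cox5b (-0.42 to 0.0075), Ndufa10l1 (-0.21 to 0.040), Ndufs1 (-0.10 to 0.11), Ndufs4 (-0.023 to 0.21), Ndufv1 (-0.13 to 0.10), Atp5f1d (-0.35 to 0.054), Atp5mc2 (-0.16 to 0.18) and Cox4i1 (-0.10 to 0.066). It also did for Cox8a (-0.13 to 0.046), Ndufa5 (-0.061 to 0.14), Ndufaf7 (-0.22 to 0.070), Ndufs7 (-0.22 to 0.098), Sdha (-0.26 to 0.015), Sdhc (-0.074 to 0.23), Uqcrfs1 (-0.023 to 0.36), Cox4i2 (-0.22 to 0.79), Cox7a2 (-0.29 to 0.032), Atp5mk (-0.14 to 0.26) and Ndufs5 (-0.34 to 0.0061).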
